A study of Mus musculus with 9 samples.

Results

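The 10 genes described here encode the main apolipoproteins of mouse liver (Apoa1, Apoa2, Apoa4, Apoa5, Apob, Apoc1, Apoc3, Apoc4 and Apoe) and microsomal triglyceride transfer protein (Mttp). They were chosen by symbol, and all 10 were found among the 24411 genes of the deposited table and passed the filter on low counts, which left 11199 genes. Poly(A) RNA was sequenced from the livers of 9 mice of the C57BL/6 background at 3 months of age, 3 for each genotype. All 9 carried Atg7flox/flox, loxP-flanked alleles of a gene required to form autophagosomes. The cont. mice had no Cre. Atg7-KO mice were Atg7flox/flox;Alb-Cre, so that the albumin promoter drove deletion in hepatocytes while the other cells of the liver kept the gene. Atg7-KO;p62-S351A mice, called the S351A group from here on, carried Alb-Cre as well and were also homozygous for p62S351A (a serine-to-alanine change in p62, the autophagy receptor that gathers the NRF2 inhibitor KEAP1 into condensates). The design asks what loss of hepatocyte autophagy did to these transcripts, and what the p62 change did on top of it.

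Apolipoproteins are the protein part of the particles that carry lipid in blood. In hepatocytes MTTP loads lipid onto the growing APOB chain in the endoplasmic reticulum, and the resulting very-low-density lipoprotein (VLDL) leaves through COPII-coated vesicles, with exchangeable apolipoproteins such as APOE and the APOC proteins on its surface. APOA1 and APOA2 are the main proteins of high-density lipoprotein (HDL). Several of the genes lie side by side in the genome.

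In mm10, with GENCODE M21 annotation, 4 members formed a cluster of 43340 bases on chromosome 9 (chr9:46228580-46271919). In order along the plus strand these were Apoa1 (chr9:46228580-46230466, plus strand), Apoc3 (chr9:46232933-46235636, minus strand), Apoa4 (chr9:46240696-46243459, plus strand) and Apoa5 (chr9:46268633-46271919, plus strand). A second cluster of 21106 bases on chromosome 7 held Apoc4 (chr7:19678083-19681479), Apoc1 (chr7:19689481-19692660) and Apoe (chr7:19696109-19699188), all on the minus strand. Apoa2 (chr1:171225054-171226379, plus strand), Apob (chr12:7977648-8016835, plus strand, 29 exons) and Mttp (chr3:138089854-138144968, minus strand, 18 exons) stood alone. All 10 are protein-coding.

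RefSeq promoter sequences (GRCm38.p6, the same build) were matched by symbol for 8 of the 10 members, of which Mttp was not used because its entry is an upstream alternative start. The stretch just upstream of the first exon is shown for 5 of them, because these include the member that fell furthest (Apoa2), the member that rose (Apoa4) with its cluster neighbour that fell (Apoa1), a member of the second cluster (Apoe) and a member without a called change (Apob). Each is written 5′ to 3′ on the strand of its gene. Capitals mark matches on either strand to CAAAG, a core of the sites of HNF4A, or to TATAAA, the sequence of the TATA box. HNF4A is the nuclear receptor known to regulate many apolipoprotein genes. A match to TATAAA need not be a TATA box. A match on the other strand of CAAAG reads CTTTG. The matches do not overlap each other, and the Apoa4 stretch also lies over an exon of Gm47528, a gene on the opposite strand.
Apoa2, chr1:171224804-171225053: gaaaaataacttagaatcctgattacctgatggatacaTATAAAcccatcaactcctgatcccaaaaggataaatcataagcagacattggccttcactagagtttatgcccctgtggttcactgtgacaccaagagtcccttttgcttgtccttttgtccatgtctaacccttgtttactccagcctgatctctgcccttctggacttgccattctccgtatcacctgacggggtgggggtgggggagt
Apoa1, chr9:46228380-46228579: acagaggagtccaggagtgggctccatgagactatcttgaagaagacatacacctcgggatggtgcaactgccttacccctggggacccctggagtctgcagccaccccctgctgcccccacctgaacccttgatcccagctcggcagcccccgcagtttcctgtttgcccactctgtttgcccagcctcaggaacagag
Apoa4, chr9:46240594-46240695: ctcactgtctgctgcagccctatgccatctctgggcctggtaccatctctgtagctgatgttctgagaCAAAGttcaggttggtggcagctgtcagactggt
Apoe, chr7:19699189-19699438: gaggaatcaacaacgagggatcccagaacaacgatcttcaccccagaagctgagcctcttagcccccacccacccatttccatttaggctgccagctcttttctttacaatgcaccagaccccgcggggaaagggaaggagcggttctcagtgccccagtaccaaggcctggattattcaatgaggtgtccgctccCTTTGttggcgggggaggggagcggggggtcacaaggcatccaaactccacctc
Apob, chr12:7977427-7977647: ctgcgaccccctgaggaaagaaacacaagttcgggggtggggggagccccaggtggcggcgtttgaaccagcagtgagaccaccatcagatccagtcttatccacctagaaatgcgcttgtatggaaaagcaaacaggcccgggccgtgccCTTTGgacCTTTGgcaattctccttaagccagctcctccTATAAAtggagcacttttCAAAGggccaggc

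No motif that was searched for was held by all 5 stretches. CAAAG was found 3 times upstream of Apob, 1 time each upstream of Apoa4 and Apoe, and not in the Apoa1 or Apoa2 stretch. TATAAA was found 1 time in the Apob stretch and 1 time in the Apoa2 stretch, at -212 from the start of Apoa2. Both motifs are common: among 32817 RefSeq promoters, 48.6% held CAAAG and 12.4% held TATAAA somewhere in the 250 bases before the start, and 25.2% held CAAAG in a window cut to the 102 bases used for Apoa4. AGGTCA, a half-site of many nuclear receptors, was not found in any of the 5 stretches. It was held by 14% of promoters over 250 bases and by 5.86% over the 102 bases used for Apoa4. Of the stretches not shown, that of Apoc4 held AGGTCA 1 time and CAAAG 2 times, and that of Apoa5 held CAAAG and TATAAA 1 time each.

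The members made up a large part of each library. Together they took 4.68, 7.72 and 5.73% of all counts in the cont. livers, 3.41 to 3.52% in the Atg7-KO livers and 3.25 to 3.96% in the S351A livers, so the groups with deleted Atg7 lay below all 3 cont. livers. Levels are given as CPM (counts per 1e+06 counts of the library) after TMM scaling, and fold changes, standard errors and p-values come from edgeR's quasi-likelihood test over all 11199 genes with Benjamini-Hochberg adjustment. A gene was called when its adjusted p was below 0.05 and its fold change above 1.5. In Atg7-KO against cont., 1 of the 10 members was called higher and 7 lower, where 19.9% of all tested genes were called higher and 18.1% lower (38% in all). The same 8 members did not overlap between the 3 Atg7-KO and 3 cont. livers, as was so for 26.7% of all tested genes in the higher and 24.9% in the lower direction. The median log2 fold change of the members was -1.15, against -0.03 over all genes tested.

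Libraries held 713841 to 15426575 counts, and all S351A libraries were smaller than any cont. or Atg7-KO library, so that depth cannot be told apart from genotype where that group is compared. Nothing in the sources used here says that counting used strand, so reads of Apoa4, Apoa5 and Mttp cannot be told apart from those of the opposite-strand genes that overlap them (Gm47528 and Gm10680, Gm47544, and Gm43691 and Trmt10a). The smallest count behind any member value was 41 (Apoa4 in cont. replicate 1). Atg7 itself was at 42.4 to 57.7 CPM in cont., 28 to 30.2 in Atg7-KO and 21.8 to 24.8 in S351A livers, lower in every liver with Alb-Cre than in any cont. liver. By Xist and Y-linked genes, 2 of 3 cont. mice and 1 of 3 in each other group were male. All 8 hepatocyte markers were detected in every group, and 6 of them were lower in Atg7-KO livers, with summed levels of 41058 to 90306 CPM in cont. and 32127 to 38279 in Atg7-KO. Of the markers of other cells, 6 of 6 tested ductular, 9 of 14 macrophage and 6 of 8 stellate markers were called higher, with 1 macrophage marker lower. Among 6 endothelial markers 1 was higher and 2 were lower, and of 3 tested erythroid markers 2 were lower. In whole liver, fewer hepatocytes and less RNA per hepatocyte cannot be told apart, and the part of either in the values below was not tested.

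**Figure D1:**
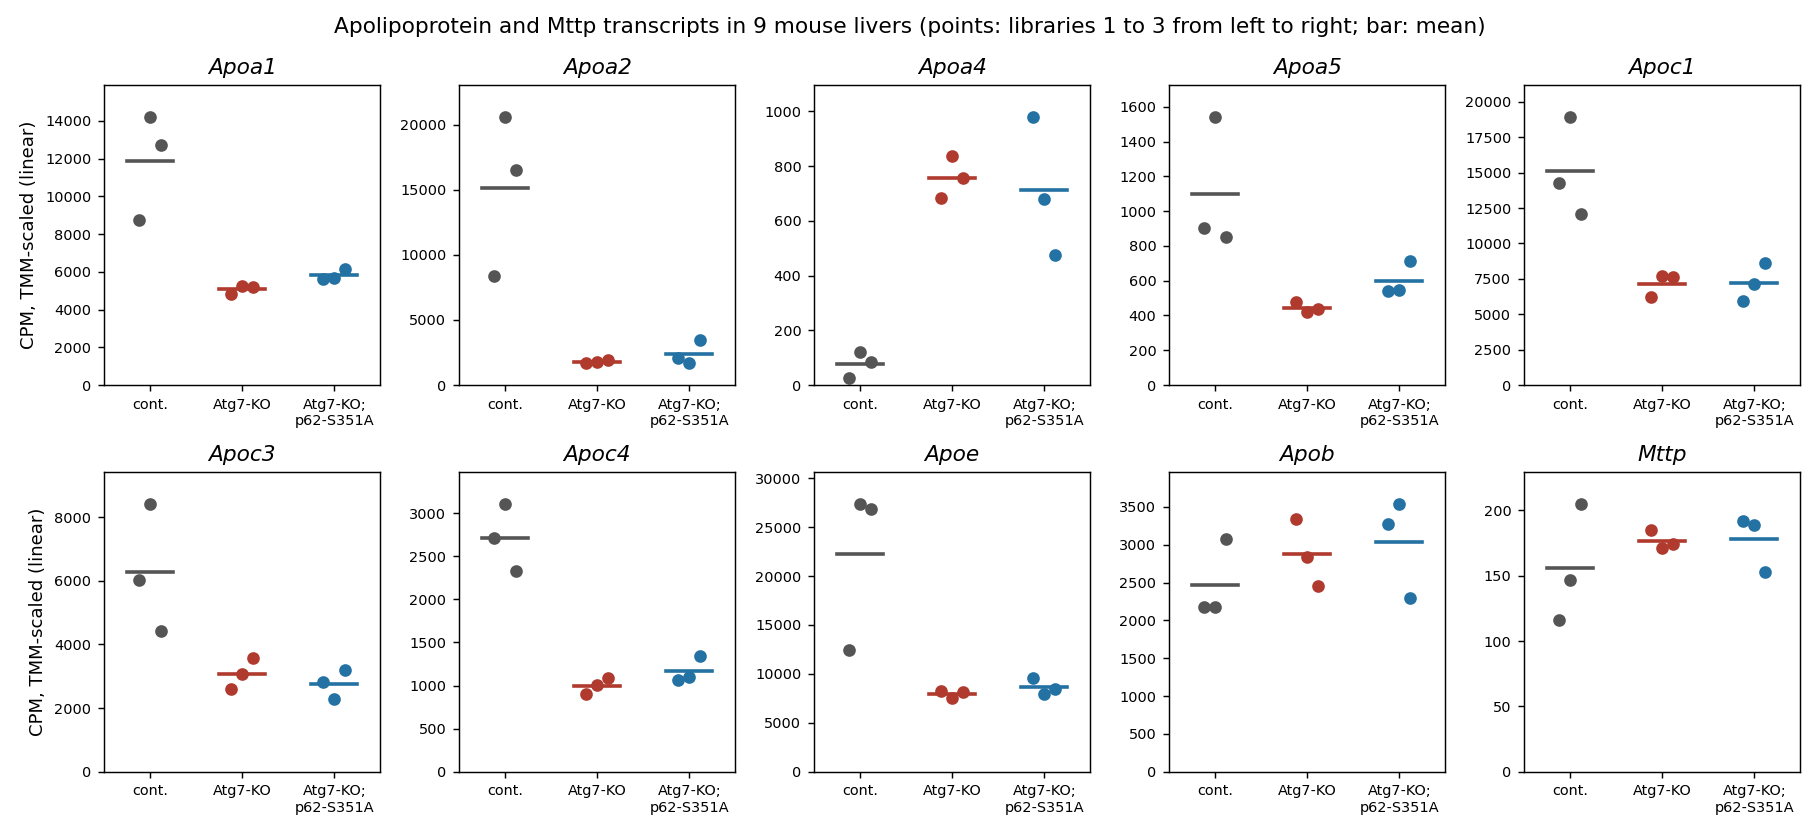
Level of each gene in the 9 livers, in TMM-scaled CPM on a linear axis that starts at 0; points are libraries and bars are group means (n = 3). For 8 genes the 3 cont. livers do not overlap with the 6 livers that carry Alb-Cre: Apoa4 is higher in those 6 livers, the other 7 are lower, and Apob and Mttp overlap.

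Apoa2, which encodes the second most abundant protein of HDL, fell furthest. It was at 8402, 20572 and 16475 CPM in the 3 cont. livers, at 1697, 1785 and 1890.3 CPM in the Atg7-KO livers and at 2069, 1688 and 3468 CPM in the S351A livers. The lowest cont. liver was still above every liver with Alb-Cre, and S351A replicate 3 was the highest of those 6. The level in Atg7-KO was 8.46-fold lower than in cont. (log2 fold change -3.08, SE 0.39, adjusted p = 9.91e-05). Counted from the lowest fold change, Apoa2 was number 91 of 11199 genes, and number 16 among the 256 genes whose mean over all 9 livers reached 500 CPM.

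Apoa1, the structural protein of HDL that activates the cholesterol-esterifying enzyme LCAT, fell less. It stood at 8726, 14204 and 12704 CPM in cont., at 4846, 5249 and 5185 CPM in Atg7-KO and at 5636, 5664 and 6154 CPM in S351A livers. The 3 groups did not overlap, with Atg7-KO lowest. Apoa1 was 2.33-fold lower in Atg7-KO than in cont. (log2 fold change -1.22, SE 0.27, adjusted p = 0.00338). The log2 fall of Apoa2 was thus the larger of the 2, and their 95% intervals (-3.93 to -2.23 for Apoa2, -1.80 to -0.64 for Apoa1) did not overlap.

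Apoa4 was the only member called higher. It encodes an exchangeable apolipoprotein that in the mouse is made mainly in the intestine and, at a lower level, in liver. It was measured at 26.1, 122 and 84.8 CPM in the cont. livers, 681, 835 and 757 CPM in the Atg7-KO livers and 979, 681 and 476 CPM in the S351A livers. The lowest liver with Alb-Cre was above the highest cont. liver. Apoa4 was 9.66-fold higher in Atg7-KO than in cont. (log2 fold change 3.27, SE 0.46, adjusted p = 2.09e-04). Counted from the lowest fold change, as for Apoa2, it was number 10849 of 11199 genes. Of 6 enterocyte markers, only Fabp2 passed the filter, with 26.1 to 102 CPM in the cont. livers, 24.1 to 37.3 CPM in the Atg7-KO livers and 14.9 to 45.7 CPM in the S351A livers (log2 fold change in Atg7-KO against cont. -1.05, adjusted p = 0.0723). The brush-border enzyme genes Alpi, Sis and Lct and the keratin gene Krt20 had 0 to 2 counts in every library. Vil1, a brush-border actin-binding protein gene that did not pass the filter on 0 to 13 counts a library, was at 1.27, 0 and 0.45 CPM in the cont., 3.02, 3.95 and 2.29 CPM in the Atg7-KO and 10.3, 7.45 and 2.47 CPM in the S351A livers, so that all livers with Alb-Cre were above the cont. livers, as for Apoa4. The part of such cells in the Apoa4 values was not tested.

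Apoa5, a liver-specific protein that promotes clearance of triglyceride-rich particles by lipoprotein lipase, is the farthest member of the chromosome 9 cluster. It was at 901, 1541 and 852 CPM in cont., at 479, 419 and 437 CPM in Atg7-KO and at 541, 546 and 712 CPM in S351A livers. The groups did not overlap. It was 2.47-fold lower in Atg7-KO than in cont. (log2 fold change -1.30, SE 0.27, adjusted p = 0.00242).

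Apoc3, the inhibitor of triglyceride clearance that lies between Apoa1 and Apoa4, fell as well. It reached 6014, 8414 and 4425 CPM in the cont. livers, compared with 2597, 3073 and 3580.2 CPM in the Atg7-KO livers and 2824, 2282 and 3194 CPM in the S351A livers. Cont. replicate 3, the lowest of its group, was above all 6 livers with Alb-Cre. The fall in Atg7-KO was 2.04-fold (log2 fold change -1.03, SE 0.30, adjusted p = 0.0156). Leaving out cont. replicate 2 (adjusted p = 0.0535) ended this call, as did leaving out Atg7-KO replicate 1 (0.0719) or 2 (0.0591).

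All 3 members of the chromosome 7 cluster fell. Apoe encodes the ligand by which remnant particles bind LDL-receptor family members. It was at 12484, 27381 and 26868 CPM in cont., at 8251, 7543 and 8141 CPM in Atg7-KO and at 9563, 7955 and 8446 CPM in S351A livers. Cont. replicate 1 was far below the other cont. livers, yet above all livers with Alb-Cre. Apoe was 2.79-fold lower in Atg7-KO than in cont. (log2 fold change -1.48, SE 0.33, adjusted p = 0.00354).

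Apoc1, a small inhibitor of cholesteryl ester transfer and of lipoprotein lipase, was at 14247, 18924 and 12108 CPM in cont., at 6201, 7677 and 7628 CPM in Atg7-KO and at 5912, 7112 and 8647 CPM in S351A livers. All livers with Alb-Cre were below the lowest cont. liver. Its fall was 2.11-fold (log2 fold change -1.07, SE 0.29, adjusted p = 0.0102), and the call was lost without Atg7-KO replicate 1 (adjusted p = 0.0508).

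Apoc4, a minor VLDL component, was at 2713, 3107 and 2324 CPM in cont., at 905, 1001 and 1085 CPM in Atg7-KO and at 1069.6, 1104 and 1343 CPM in S351A livers. The cont. livers were again above all others. Apoc4 fell 2.72-fold in Atg7-KO (log2 fold change -1.45, SE 0.24, adjusted p = 5.54e-04). Its counts share a locus with Apoc2 and with a read-through row named Apoc4-apoc2, which held 1997 expected counts in cont. replicate 3, 18.2 in cont. replicate 2 and 0 in the other 7 libraries, so the split between these rows is uncertain. With that row added to Apoc4 the log2 fold change was -1.48, a setting chosen after the data were seen.

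Apoc2, the cofactor of lipoprotein lipase and not itself a member, had a log2 fold change of 0.49 in the same comparison (adjusted p = 0.152). Of the counts in the 3 rows of this locus, Apoc2 took 6.24 to 10.1% in cont., 24.7 to 27.8% in Atg7-KO and 20.6 to 26.2% in S351A livers. These ranges of cont. and of the livers with Alb-Cre did not overlap.

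Apob and Mttp were not called in either direction. Apob, the structural protein of VLDL, was at 2172, 2172 and 3073 CPM in cont., at 3332, 2833 and 2456 CPM in Atg7-KO and at 3274, 3539 and 2297 CPM in S351A livers. The groups overlapped. Its log2 fold change in Atg7-KO against cont. was 0.22 (95% interval -0.37 to 0.81, adjusted p = 0.565). Mttp stood at 116, 147 and 205 CPM in cont., at 185, 171 and 174 CPM in Atg7-KO and at 192, 189 and 153 CPM in S351A livers. Here the cont. livers spanned the whole range of the other 6. The log2 fold change was 0.18 (95% interval -0.32 to 0.67, adjusted p = 0.582). The upper bounds of both intervals lie above 1.5-fold.

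**Figure D2:**
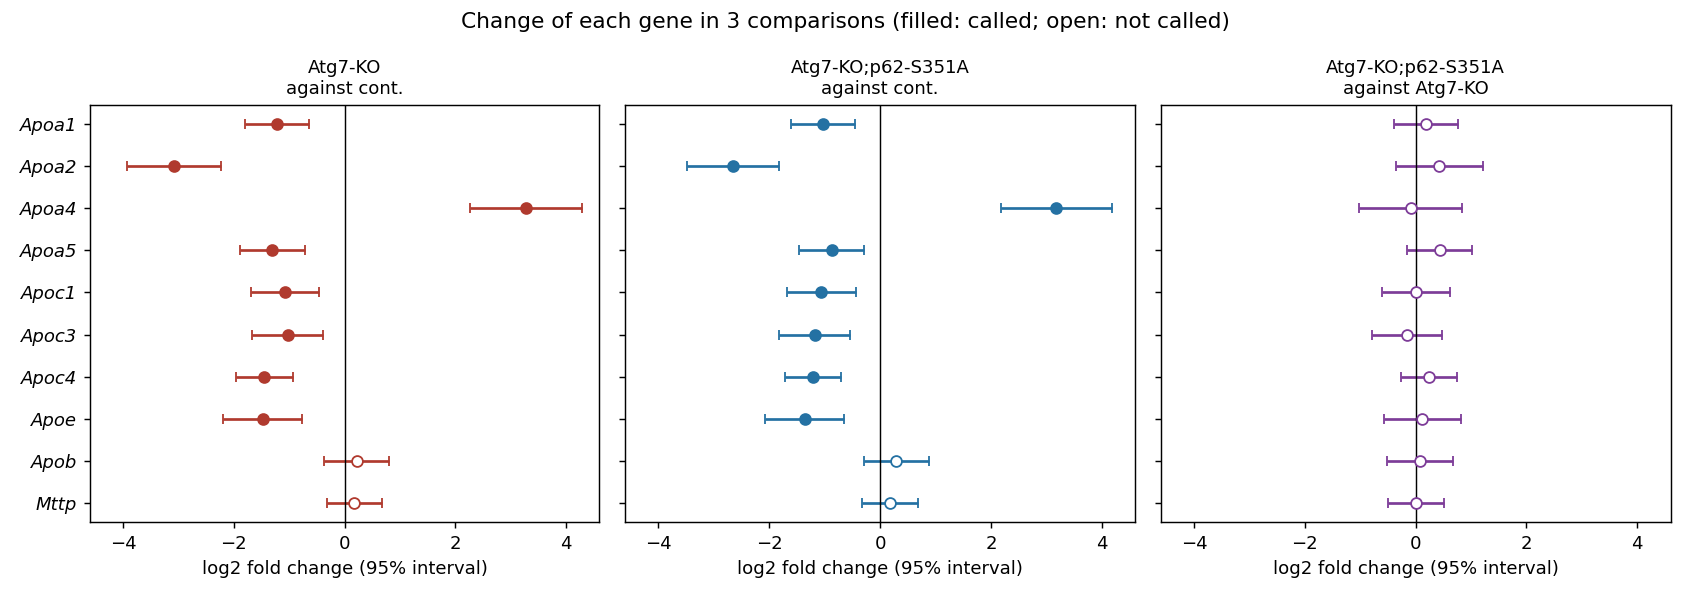
Log2 fold change of each gene (x axis) in 3 comparisons, with 95% intervals from edgeR's quasi-likelihood fit of 9 libraries; filled points are called and open points are not. In both comparisons with cont., Apoa4 is to the right of 0 and 7 genes are to the left, while in S351A against Atg7-KO every interval includes 0.

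Some of the calls changed with the scaling. The 20 genes with most counts took 21.5 to 30.5% of the cont. libraries and 15.4 to 17.7% of the others. Scaling by total count moved the median of all genes upward by 0.54 on the log2 scale. Under it Apoa4 (3.82), Apoa2 (-2.54), Apoe (-0.93), Apoc4 (-0.92), Apoa5 (-0.78) and Apoa1 (-0.68) kept their calls. Apoc1 (-0.55, adjusted p = 0.128) and Apoc3 (-0.51, adjusted p = 0.184) lost theirs, and Apob (0.76, adjusted p = 0.0282) and Mttp (0.73, adjusted p = 0.0144) were called higher. Mttp was also called higher with the top 20 genes left out of the library size (0.62, adjusted p = 0.0381). No member changed sign under the 5 scalings in this comparison.

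**Figure D3:**
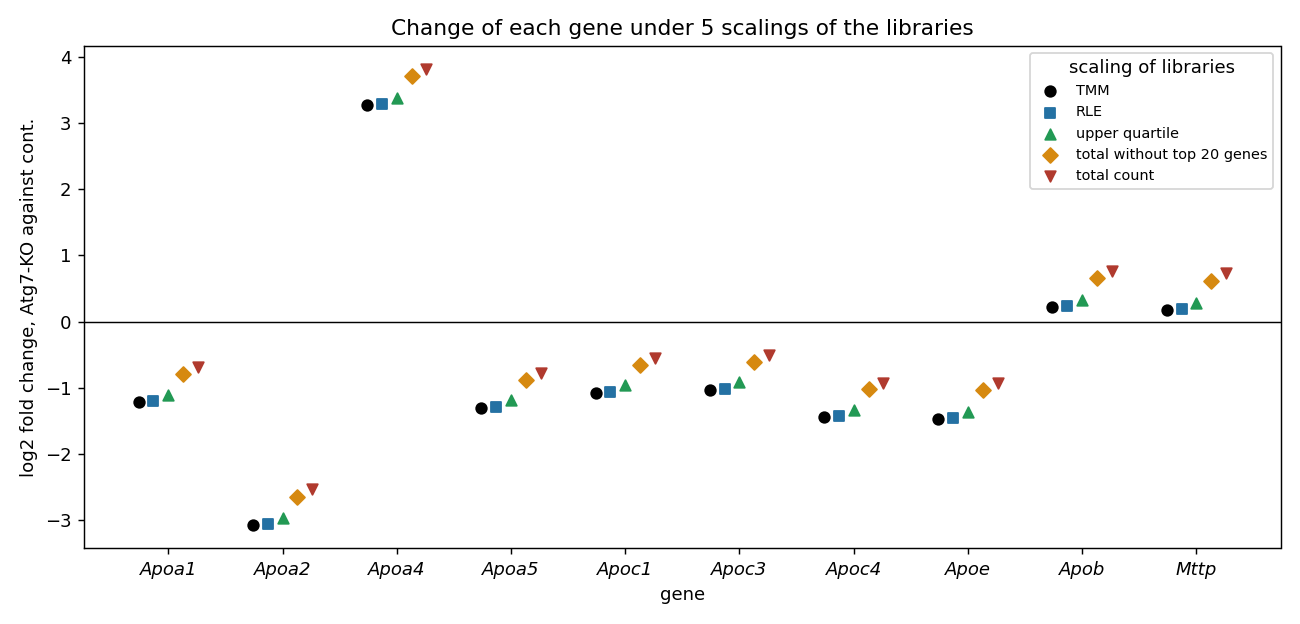
Log2 fold change in Atg7-KO against cont. (y axis) of each gene (x axis) under 5 scalings of the same counts. Total count and total without the 20 genes with most counts place every gene higher than TMM, with shifts of 0.54 and 0.43 in the median of all genes, and no gene changes sign.

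The order of levels within a group changed as well. Per kilobase of the principal transcript, the cont. means ran from Apoa2 (29246 ± 11954 CPM per kb, SD, n = 3) and Apoc1 (28370.4 ± 6552) through Apoe (15798 ± 6006), Apoc3 (11947 ± 3818), Apoa1 (11476 ± 2735) and Apoc4 (5045 ± 727) to Apoa5 (437 ± 153), Apob (177 ± 37.3), Apoa4 (42.8 ± 26.7) and Mttp (39.4 ± 11.4). The range of Apoa2 overlapped with those of Apoc1 and Apoe. The ranges of Apoe, Apoc3 and Apoa1 also overlapped, as did those of Apoa4 and Mttp. In the Atg7-KO livers Apoc1 led (13475 ± 1575 CPM per kb) and Apoa2 was the fifth (3457 ± 187), below Apoc3 (5862 ± 935), Apoe (5666 ± 271) and Apoa1 (4921 ± 209). The range of Apoc3 overlapped with those of Apoe and Apoa1, and that of Apoa2 lay below all 3. Apoa4 (418 ± 42.3 CPM per kb) now lay above Apob (206 ± 31.5) and Apoa5 (177 ± 12.3), with no overlap, while Apob and Apoa5 overlapped. S351A livers had Apoc1 (13578 ± 2577 CPM per kb) first and Apoa4 (392.2 ± 139.2) above Apob (218 ± 47) without overlap, whereas its range overlapped with that of Apoa5 (239 ± 38.7).

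Ratios of counts within a library need no scaling between libraries. Within the chromosome 9 cluster, Apoa4 counts were 0.302, 0.862 and 0.668% of Apoa1 counts in the cont. livers, 14.1, 15.9 and 14.6% in the Atg7-KO livers and 17.4, 12 and 7.75% in the S351A livers. The mean log2 ratio was 4.73 higher in Atg7-KO and 4.40 higher in S351A than in cont., and no cont. liver overlapped with the others. An exact permutation test of the 3 groups, over all 280 ways to split 9 libraries into 3 groups of 3, gave p = 0.0179, and 0.107 after adjustment over the 6 ratios tested; the smallest p it could give was 0.00357.

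**Figure D4:**
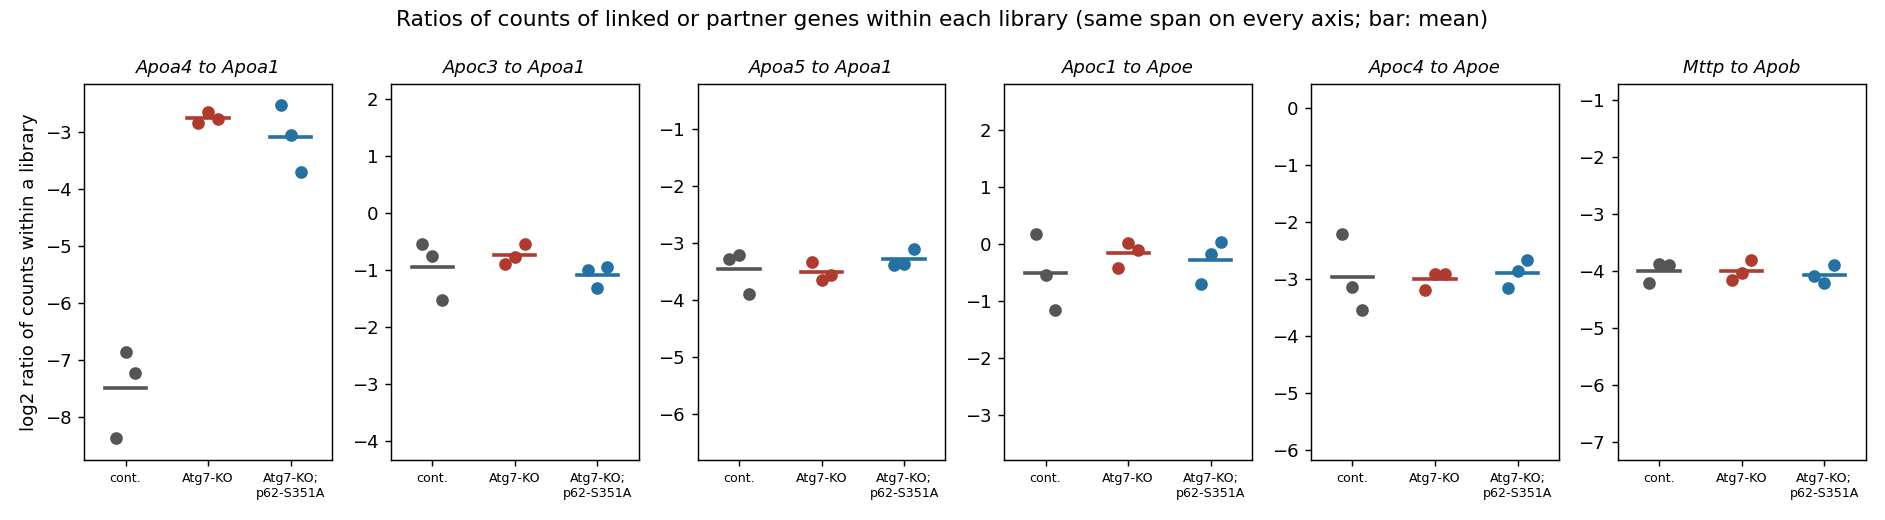
Log2 ratio of the counts of 2 genes within each library (y axes, all of the same span) for 6 pairs; points are libraries and bars are group means (n = 3). Apoa4 to Apoa1 separates cont. from the other groups, and the remaining 5 ratios overlap between cont. and both other groups.

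No ratio reached an adjusted p below 0.05 in this exact permutation test, neither Apoa4 to Apoa1 (0.107) nor the other 5. Apoc3 to Apoa1 and Apoa5 to Apoa1 differed between Atg7-KO and cont. by 0.20 and -0.06 on the log2 scale (exact permutation p = 0.493 and 0.554 over the 3 groups). In the chromosome 7 cluster, Apoc1 to Apoe differed by 0.34 (exact permutation p = 0.707) and Apoc4 to Apoe by -0.05 (p = 0.932). Mttp to Apob, for the protein that loads lipid and the protein that takes it up, was 5.37 to 6.75% in cont. livers. It was 5.56 to 7.11% in Atg7-KO and 5.35 to 6.69% in S351A livers (exact permutation p = 0.879). These 5 ratios had the same adjusted p of 0.932. Their cont. values spread widely, with an SD of 0.19 to 0.68 log2 units, so differences of that size were not detectable.

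Genes just outside the clusters, Apoc2 left aside because it is given above, were looked at after the data had been seen, as the 3 nearest protein-coding genes on each side with at least 10 counts in every library. Around the chromosome 9 cluster, 4 of 6 were not called in Atg7-KO against cont., where 38% of all tested genes were called, among them its direct neighbours Sik3 (log2 fold change -0.37, adjusted p = 0.438) and Zpr1 (-0.09, adjusted p = 0.83). Sidt2, a lysosomal membrane protein gene, was lower (-0.68, adjusted p = 0.0198) and Cadm1, a cell adhesion gene over a megabase away, was higher (1.27, adjusted p = 0.0025). Around the chromosome 7 cluster, Cblc was higher (0.76, adjusted p = 0.0171), and 5 of 6 were not called, including Clptm1 (0.37, adjusted p = 0.161) and Tomm40 (0.07, adjusted p = 0.81).

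In S351A against Atg7-KO, no member was called in either direction by edgeR, and none had an unadjusted p below 0.05. Among all tested genes a single one, Tekt5, was called (0.00893%), and 6.6% had an unadjusted p below 0.05. DESeq2 and limma-voom called no member either. Log2 fold changes of the members ran from -0.16 (Apoc3) to 0.43 (Apoa5), with adjusted p-values of 0.842 to 0.997. Apoa5 (95% interval -0.15 to 1.01) and Apoa2 (-0.36 to 1.22) had the highest values. With each library left out, Apoa5 ranged from 0.28 to 0.50 and Apoa2 from 0.063 to 0.635. Apoa1 and Apoa5 were higher in all 3 S351A livers than in any Atg7-KO liver, by 0.19 (95% interval -0.38 to 0.77) and 0.43 on the log2 scale, where 7.67% of all tested genes were separated in that direction and 9.23% in the other. Apoa4 differed by -0.09 (95% interval -1.01 to 0.83), Apob by 0.08 (-0.51 to 0.67) and Apoe by 0.12 (-0.58 to 0.81). For every member except Mttp (0.01, 95% interval -0.50 to 0.51) the interval included changes of over 1.5-fold, so smaller changes were not detectable at this depth and number of livers.

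Against the same cont. livers, the S351A group gave 1 member higher and 7 lower, with 15.6% of all tested genes called higher and 13% lower (28.6% in all). None of these 8 overlapped between the groups, against 19.6% of all tested genes in the higher and 18.4% in the lower direction. Because the cont. libraries are shared, the values are set side by side with those above and not compared as independent results. Apoa4 was 9.08-fold higher (log2 fold change 3.18, SE 0.46, adjusted p = 4.85e-04). Apoa2 was 6.29-fold lower (-2.65, SE 0.39, adjusted p = 4.73e-04). Apoe (-1.36, adjusted p = 0.00836), Apoc4 (-1.21, adjusted p = 0.00274), Apoc3 (-1.18, adjusted p = 0.0107), Apoc1 (-1.06, adjusted p = 0.0151), Apoa1 (-1.03, adjusted p = 0.0126) and Apoa5 (-0.87, adjusted p = 0.0289) were lower. Apob (0.30, adjusted p = 0.445) and Mttp (0.18, adjusted p = 0.596) were not called. Under scaling by total count Apoa1 (-0.54, adjusted p = 0.112), Apoa5 (-0.39, adjusted p = 0.295), Apoc1 (-0.59, adjusted p = 0.125) and Apoc3 (-0.71, adjusted p = 0.0875) lost their calls, and Apob (0.78, adjusted p = 0.0324) and Mttp (0.68, adjusted p = 0.0277) were called higher. Without S351A replicate 2 the calls of Apoa5 (adjusted p = 0.102), Apoc1 (0.0552) and Apoc3 (0.054) were lost, which left 4 members called lower. Without S351A replicate 1 those of Apoa5 (0.0989) and Apoc1 (0.0695) were lost, and without cont. replicate 2 that of Apoa5 (0.103). Over all genes, the number called lower fell from 1460 to 887 without S351A replicate 2 and to 892 without S351A replicate 1. It was 1481 without cont. replicate 2, and under scaling by total count 512 were lower and 3498 higher. A fit of the 6 S351A and cont. libraries alone kept only Apoa2 and Apoc4 lower, with Apoe at an adjusted p of 0.053 and Apoa1 at 0.0847. In that fit 764 of all genes were lower. S351A replicate 3, which lay apart from the other 5 livers with Alb-Cre on the first principal component, changed no call when it was left out.

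Genes of the same pathway were taken from lists, and their calls in Atg7-KO against cont. follow. Each count stands beside 19.9% of all tested genes called higher and 18.1% lower. Each count under scaling by total count stands beside 4284 of the 11199 genes called higher and 801 lower under that scaling. Without Atg7-KO replicate 1, 2 or 3, the calls over all genes were 1786, 1868 and 1859 higher and 1452, 1487 and 1522 lower. Without any single other library they were 2119 to 2372 higher and 1923 to 2165 lower. Of 7 other apolipoprotein genes, 6 were tested, 1 was higher and 3 were lower, so that the number higher was near the share over all genes. Clu, a chaperone-like apolipoprotein also known as APOJ, rose (log2 fold change 1.46, SE 0.28, adjusted p = 0.00138). Apon (-1.80, adjusted p = 2.31e-04), Apof (-1.29, adjusted p = 8.96e-04), an HDL-associated inhibitor of lipid transfer, and Apoh (-1.19, adjusted p = 0.0137), a phospholipid-binding plasma protein, fell. Apom (0.38, adjusted p = 0.39) and Apoc2 were not called. Under scaling by total count 3 genes of this list were higher and 2 lower, and Apoh lost its call (-0.64, adjusted p = 0.117).

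Genes of lipid loading and export from the endoplasmic reticulum gave 7 of 13 lower, where 18.1% of all tested genes were lower, and none higher, where 19.9% were. The median log2 fold change of this list was -0.71. Aadac, an arylacetamide deacetylase linked to mobilisation of stored triglyceride, was lowest (-2.21, SE 0.27, adjusted p = 7.81e-05). Sec24a, a cargo adaptor of COPII vesicles (-1.23, adjusted p = 0.00139), Soat2, which esterifies cholesterol (-1.15, adjusted p = 4.55e-04), Dgat2, which makes triglyceride (-1.02, adjusted p = 0.0121), and Sar1b, the COPII GTPase (-0.71, adjusted p = 0.046), were lower as well. P4hb, the small partner subunit of MTTP, was lower too (-0.90, adjusted p = 0.0164). Tm6sf2 (0.07, adjusted p = 0.909) and Surf4 (0.49, adjusted p = 0.146) were not called. Under scaling by total count 3 of the 13 were lower and 1 was higher. Without Atg7-KO replicate 1, 4 were lower, and without cont. replicate 3, 1 was higher.

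Of 4 genes for editing of Apob mRNA, Apobec1, the cytidine deaminase, was higher (1.20, SE 0.26, adjusted p = 0.00365), at 60.7 to 76.8 CPM in Atg7-KO and 24.4 to 38.1 CPM in cont. livers. Its cofactors A1cf (-0.58, adjusted p = 0.0494), Rbm47 (-0.16, adjusted p = 0.616) and Syncrip (-0.21, adjusted p = 0.398) were not called, A1cf because its fold change was below 1.5. Gene counts do not show whether Apob transcripts were edited.

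Among 12 genes of lipases and plasma remodelling, 2 were higher and 4 lower, beside 19.9% and 18.1% of all tested genes. Lpl, the lipase that clears triglyceride from particles in blood, rose most, from 47.5 to 83.9 CPM in cont. to 885 to 1047 CPM in Atg7-KO (log2 fold change 3.82, SE 0.34, adjusted p = 8.61e-06). Abcg1, which exports cholesterol to HDL, rose at low level (1.26, adjusted p = 0.0432). Lipc, the hepatic lipase, fell (-1.95, SE 0.24, adjusted p = 7.02e-05), as did Pon1, an HDL-bound lactonase (-1.65, adjusted p = 8.14e-04), and Lcat, the enzyme that APOA1 activates (-1.04, adjusted p = 0.0194). Under scaling by total count 3 were higher and 2 lower, and Lcat lost its call (-0.52, adjusted p = 0.197). Without Atg7-KO replicate 1 the list had 1 gene higher and 2 lower, and leaving out Atg7-KO replicate 2 or 3 or S351A replicate 2 likewise left 1 higher. Lpl and Abcg1 are also expressed by macrophages, whose summed markers were between 264 and 423 CPM in cont. and between 520 and 659.9 CPM in Atg7-KO. The median log2 fold change of the 14 macrophage markers was 1.36, and they moved unevenly. Clec4f, a Kupffer cell lectin and a large part of that sum, was at 124 to 179 CPM in cont. and 87.7 to 164 CPM in Atg7-KO livers and was not called. Trem2, a receptor of lipid-associated macrophages, rose from 0.45 to 1.41 CPM in cont. to 14.4 to 17.4 CPM in Atg7-KO livers, and Gpnmb rose from 0 in all 3 cont. livers to 3.71 to 6.41 CPM. Timd4, a marker of resident Kupffer cells, fell from 6.99 to 8.69 CPM to 0.70 to 3.59 CPM, on 3, 10 and 5 counts in the Atg7-KO livers. Others of the list overlapped between cont. and Atg7-KO livers. These were Vsig4 (6.36 to 15.85 and 11.4 to 17.4 CPM), Cd5l (29.9 to 64.1 and 33.9 to 55.8 CPM) and Marco (2.54 to 10.6 and 2.29 to 4.64 CPM). These markers were named after their values were seen, and the part of macrophages in the rise of Lpl and Abcg1 was not tested.

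Receptors of particle uptake gave 2 of 11 lower, beside 18.1% of all tested genes, and none higher, Lrp1 at -1.38 (adjusted p = 7.88e-04) and Scarb1, the HDL receptor, at -0.60 (adjusted p = 0.0241). Scarb1 was not called under any of the 4 other scalings, and under scaling by total count 3 genes of the list were called higher and 1 lower. Without cont. replicate 1, 4 were lower, without any single Atg7-KO replicate 1 was lower, and without cont. replicate 3, 2 were higher. Of 15 transcriptional regulators, 5 were lower, again beside 18.1% of all tested genes, and none higher. These included Nr1h4, the bile acid receptor FXR (-1.61, adjusted p = 8.53e-04), its target Nr0b2 (-1.44, adjusted p = 0.0105) and Creb3l3, a liver transcription factor known to activate Apoa4 (-1.21, SE 0.23, adjusted p = 0.00129). Creb3l3 lay between 332 and 409 CPM in the cont. livers and between 147 and 184 CPM in the Atg7-KO livers. Under scaling by total count 2 regulators were lower and 1 was higher, and Nr0b2 lost its call (-0.89, adjusted p = 0.0657).

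Other proteins secreted by hepatocytes are given for scale. Of 12 such genes, 8 were lower and none higher (18.1% and 19.9% of all tested genes), with a median log2 fold change of -1.17, beside -1.15 for the 10 members. Fgg (-1.69, adjusted p = 5.97e-04) and Serpinc1 (-1.44, adjusted p = 0.00161), for fibrinogen gamma and antithrombin, and Ttr, for transthyretin (-1.49, adjusted p = 0.00407), were the lowest of those called. Under scaling by total count 4 were lower and 1 was higher. Without any single Atg7-KO replicate 5 were lower, beside 1452 to 1522 of all genes, against 2027 of all genes with every library. The summed level of this list was 54216 CPM in cont. replicate 1, against 117382 and 118538 CPM in the other cont. livers, and 44061 to 50442 CPM in Atg7-KO livers. In S351A against Atg7-KO none of these pathway lists had a called gene.

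Patterns across the 9 livers were compared by Pearson's r of log2 CPM. Among the 7 members that fell it ran from 0.79 (Apoc3 and Apoe) to 0.99 (Apoa1 and Apoa2), with 0.98 for Apoa1 and Apoe and 0.97 for Apoc1 and Apoc4. Apob and Mttp had 0.83 with each other. All such values over 9 libraries share the large difference between cont. and the rest, and they are given as a description. Among 3363 other genes with a mean of at least 50 CPM, those most like Apoa2 were Cyp2d26, Ass1 and Eci1 (r of 0.99 each), a cytochrome P450, a urea cycle enzyme and an enzyme of fatty acid oxidation. Apoa1 was most like Eci1, Kng1 and Asgr1 (0.99 each), and the genes most like Apoe included Serpinc1 and Ech1 (0.99 each). For Apoc1 they were Fetub, Anapc13 and Sirt3 (0.99, 0.99 and 0.98), for Apoc4 Adtrp, Tmem205 and 0610005C13Rik (0.99 each), for Apoc3 Acat1, Ecm1 and Epn1 (0.97 each), and for Apoa5 Tomm40l, Glul and Atf5 (0.98, 0.97 and 0.97). The genes most like Apoa4 included Npc2, which carries cholesterol in lysosomes (0.98), and Tapbp (0.98).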

How the data were processed

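Livers of 9 mice were sequenced as poly(A) RNA with 75-base single-end reads. STAR alignment to mm10 and RSEM were run by the authors, who deposited expected counts per gene (Trim Galore is named in the submitters' processing notes; versions, annotation and strand setting are not given in the sources used here). Columns were assigned to the groups by the sample titles; the genotype field of S351A replicates 2 and 3 names other residue numbers, and the titles were followed.

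Expected counts were rounded and analysed with edgeR 4.0.16 in R 4.3.3. All 9 libraries entered one quasi-likelihood fit with TMM scaling, after a filter (filterByExpr, minimum count 10, minimum total 15). Standard errors are the log2 fold change divided by the square root of F, and intervals are 95%. The script was tested on simulated counts. Ratios had 0.5 added to each count and were tested by exact permutation, two-sided. Levels per kilobase used the GENCODE M21 principal transcript.

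All 10 members are named. From each pathway list up to 3 genes per direction with the largest called change and at least 10 CPM are named, and a few uncalled or further list genes were named after their values were seen. Likeness is given for members called in any comparison. Some genes that this rule picks are not reported here. Members and lists were chosen with earlier results of these data known. Alternatives were other scalings, filters and thresholds, DESeq2 1.42.0, voom (limma 3.58.1), only the libraries compared, a replicate block, sex as a covariate, thinning to the smallest library and each library left out.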

Additional observations from a re-analysis of the deposited data

How the results depend on the processing

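In Atg7-KO against cont., 5 to 7 members were called lower in all 25 alternatives, beside 801 to 2473 of all genes. Always 1 was called higher except under total library size (3) and library size with the top 20 genes left out (2). Over all genes, 4284 and 3777 were called higher in those 2 settings, against 2226 in the analysis as reported. In S351A against cont., the number called lower fell from 7 to 3 under total library size, 3 with the top 20 genes left out of it, 2 with the 6 compared libraries alone and 3 with glmTreat against 1.5-fold, and ranged from 4 to 7 when each library was left out. Over all genes, the number called lower fell from 1460 to 512, 638, 764 and 618 in these settings, and ranged from 887 to 1650 when each library was left out. The number of members called higher was 3 under total library size, where all genes called higher rose from 1748 to 3498. Apoa2, Apoa4 and Apoc4 kept their calls in both comparisons with cont. in all 25 alternatives. No member was called in S351A against Atg7-KO in any of them, while DESeq2 called 19 genes of the whole table higher and 17 lower there, and no filter gave 61 and 37, against 0 and 1 in the analysis as reported. Total library size moved the share of higher calls over all genes from 52.3 to 84.2% in Atg7-KO against cont. and from 54.5 to 87.2% in S351A against cont. The causes of these differences were not tested.

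Signs changed only for values that were not called in the analysis as reported. In S351A against Atg7-KO, Apoc1 (0.01) and Mttp (0.0079) became -0.034 and -0.048 under total library size, -0.025 and -0.035 with the top 20 genes left out of it, -0.0060 and -0.0085 under upper quartile, -0.043 and -0.048 with no filter, and -0.0096 and -0.011 with at least 10 counts in every library. Apoc1 was -1.9e-04 with limma-voom, and Mttp -0.026 after thinning. With each library left out, the ranges were -0.14 to 0.13 for Apoc1, -0.052 to 0.10 for Mttp, -0.046 to 0.24 for Apob and -0.39 to 0.13 for Apoa4, and Mttp ranged from -0.012 to 0.42 in Atg7-KO against cont. and from -0.0079 to 0.42 in S351A against cont. The Atg7-KO minus cont. difference of the log2 ratio Apoa5 to Apoa1 (-0.06) became 0.010 after thinning. With each library left out it ranged from -0.28 to 0.069, that of Apoc3 to Apoa1 from -0.089 to 0.40, of Apoc4 to Apoe from -0.33 to 0.33 and of Mttp to Apob from -0.11 to 0.073. That of Apoc1 to Apoe ranged from 0.011 to 0.68 and that of Apoa4 to Apoa1 from 4.29 to 5.05, both without a change of sign. Apoa4 to Apoa1 passed the test without S351A replicate 1 (exact permutation, adjusted p = 0.0214, range over alternatives 0.0214 to 0.333).

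The labels do not say that equal replicate numbers mark paired livers, and the data did not settle it: correlations of deviations ran from -0.04 to 0.31 (0.24 to 0.31 for the 3 pairs of replicate 1), 5 of 9 pairs were above 0.1, and 4 of 9 libraries correlated best with their own number. Replicate 1 was male and replicate 2 female in every group. With the replicate block the members called were 1 higher and 7 lower in both comparisons with cont. and 0 in S351A against Atg7-KO. The ratio differences were as reported, with Apoa4 to Apoa1 at 4.73 (exact permutation, adjusted p = 0.333). Labels were shuffled there only within each replicate number, so the smallest p of that exact permutation test was above the 0.00357 without the block. The adjusted p-values with and without the block thus cannot be compared. Sex as a covariate gave the same numbers of members. The low depth of the S351A libraries limits that group, where the smallest member count was 124 (Mttp). All intervals describe the uncertainty of a difference between group means, given the spread between these livers, and not the range of single livers.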
